A study of Mus musculus with 16 samples.

Results

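Vpreb1, Vpreb3, Igll1, Rag1, Rag2, Dntt, Ebf1, Pax5, Cd79a and Cd79b are genes of precursor B cells, the pro-B and pre-B cells of bone marrow, and are described here in cochleae of DBA/2J mice. All probes of the array whose only gene symbol was 1 of these names were taken, which gave 18 of 45101 probes, and 10 of 18194 genes. The genes were chosen by their group means and single-array log2 signals on these same arrays, so their levels and differences are a description and carry no p value. Each array held the whole left cochlea of 1 male mouse. In the M+V group, 6 mice had L-methionine (MET, a methyl donor, 500 mg/kg) together with valproic acid (VPA, an inhibitor of histone deacetylases, 300 mg/kg), injected under the skin every day for 8 weeks, and were 12 weeks of age. The control group was 5 mice of the same age that had the vehicle, and the third group was 5 mice at 4 weeks of age without injections. All 3 groups carry the strain's alleles of Cdh23 and Fscn2 that are linked to progressive hearing loss. Control against 4 weeks holds both age and the vehicle injections, which cannot be told apart. M+V against 4 weeks holds age, the injections and the drugs MET and VPA, which cannot be told apart either.

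B cells are made in the marrow. A pro-B cell cuts and rejoins its immunoglobulin heavy chain gene with the recombinase of Rag1 and Rag2, and Dntt adds bases at the joints. A pre-B cell then shows the new heavy chain at its surface together with the surrogate light chain of Vpreb1 and Igll1 and with the signalling chains Cd79a and Cd79b, while the factors Ebf1 and Pax5 hold the cell in the B lineage. The rule that chose the genes places such cells in the marrow of the otic capsule, the bone round the cochlea. No marrow was sampled apart from the cochlea, and no cells were sorted. In a bulk sample fewer cells of a type and less RNA per cell cannot be told apart.

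Promoters were read from RefSeq for 9 of the 10 genes, in the C57BL/6J reference of build GRCm38.p6 and not in DBA/2J, as the 250 bases before the start site. The 4 windows below, 5′ to 3′, are shown because Vpreb1 and Igll1 encode the parts of the surrogate light chain and lie next to each other, and because Vpreb3 and Rag1, 2 more of the genes that stood far below all other arrays in 1 cochlea, hold motif matches. Capitals mark the E-box CAGCTG, the octamer ATTTGCAT and the Ikaros core TGGGAA. The windows are chr16:16869256-16869505 (minus strand) for Vpreb1, chr16:16863986-16864235 (minus strand) for Igll1, chr10:75948050-75948299 (plus strand) for Vpreb3 and chr2:101649533-101649782 (minus strand) for Rag1.
Vpreb1: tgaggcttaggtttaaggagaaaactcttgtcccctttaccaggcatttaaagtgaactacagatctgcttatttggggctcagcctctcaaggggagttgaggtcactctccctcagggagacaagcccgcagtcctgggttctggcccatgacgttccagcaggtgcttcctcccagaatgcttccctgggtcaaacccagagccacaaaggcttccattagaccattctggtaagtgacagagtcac
Igll1: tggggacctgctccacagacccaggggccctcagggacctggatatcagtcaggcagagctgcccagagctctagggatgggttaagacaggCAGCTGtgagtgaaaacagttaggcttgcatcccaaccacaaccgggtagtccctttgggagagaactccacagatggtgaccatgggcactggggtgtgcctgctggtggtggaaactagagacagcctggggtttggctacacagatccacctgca
Vpreb3: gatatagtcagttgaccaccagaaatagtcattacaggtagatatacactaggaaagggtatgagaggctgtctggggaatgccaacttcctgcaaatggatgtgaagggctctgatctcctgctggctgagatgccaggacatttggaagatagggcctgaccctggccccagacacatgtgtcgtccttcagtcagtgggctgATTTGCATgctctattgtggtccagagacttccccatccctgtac
Rag1: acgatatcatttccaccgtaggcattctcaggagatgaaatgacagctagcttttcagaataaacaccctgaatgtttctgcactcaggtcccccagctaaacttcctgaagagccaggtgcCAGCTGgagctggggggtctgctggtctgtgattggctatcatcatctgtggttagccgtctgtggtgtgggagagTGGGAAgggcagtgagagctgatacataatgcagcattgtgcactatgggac

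The start sites of Vpreb1 and Igll1 are 5270 bases apart on the same strand, and those of Rag1 and Rag2 are 24820 bases apart. On either strand, the E-box CAGCTG was found in 2 of the 10 member promoters (Ebf1 has 2), those of Igll1 (from position -158 to the start site) and Rag1 (from position -128), and in 13.0% of the 32851 promoters of the same length. The Ikaros core TGGGAA was in 2 of the 10, 1 of Ebf1 and that of Rag1, and in 21.6% of all. The octamer ATTTGCAT, from position -45 of Vpreb3, was in 1 of the 10 and in 1.6% of all. A match is a run of letters and no measured site.

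The values are log2 signals after MAS5 and quantile normalization, with a median of 6.90 in every array, and probes of different genes are not set against each other. A probe was tested when 1 or more groups had it at or over that median in all of their arrays, and 21391 probes passed. Of the 18 probes of these genes 11 passed, which stand for 7 of the 10 genes. Rag2, Pax5 and Cd79a did not, and their values come from a fit without the filter. Each gene is given by its brightest probe. The arrays differed in a pair of ways that bear on the results. M+V replicate 1 stood apart, with the lowest of the 16 values at 15.95% of all tested probes and the highest at 16.8%. M+V replicate 2 (11.37% and 9.387%) and replicate 3 (10.23% and 12.12%) came next, and the other 13 arrays had at most 7.77% of either. In addition, the bioB control, a bacterial transcript added at hybridisation, was at a high level (9.02 to 9.74) in M+V replicates 1 and 2, in control replicate 1 and in the 5 cochleae of 4-week mice, and at a low level (5.98 to 6.36) in the remaining M+V and control cochleae, 4 of each. The labels name no batch. No 4-week cochlea had the low level, so both comparisons with 4 weeks also hold the bioB level in part.

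Vpreb1 and Igll1, which form the surrogate light chain, and Vpreb3, a related protein of precursor B cells, were well above the array median in 15 of the 16 cochleae. M+V replicate 1 was the exception for all 3. Vpreb1 was 4.52, 10.13, 9.28, 10.99, 10.88 and 10.77 in M+V replicates 1 to 6, against 9.94, 9.98, 9.26, 10.80 and 10.56 in control replicates 1 to 5 and 10.24, 10.81, 11.02, 10.85 and 10.59 in the cochleae at 4 weeks. Apart from replicate 1, the M+V values lay among those of the control and the 4-week cochleae. Vpreb1 averaged 9.43 ± 2.49 in M+V cochleae (SD, n = 6), 10.11 ± 0.60 in control cochleae and 10.70 ± 0.30 at 4 weeks (SD, n = 5 each). The difference was -0.68 (SE 0.85) for M+V minus control and -1.27 (SE 0.85) for M+V minus 4 weeks. Without M+V replicate 1 these were 0.30 and -0.29, so that 1 array set the sign of the first. Control minus 4 weeks was -0.59 (SE 0.89), with 3 of the 5 control cochleae below every 4-week cochlea.

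Vpreb3 ran between 6.43 and 10.17 in the M+V cochleae, with a median of 9.52. It was 9.94, 9.73, 9.84, 10.17 and 9.87 in the control cochleae and 9.93, 9.94, 10.12, 10.17 and 10.09 at 4 weeks. M+V replicates 1 to 4 were below every control cochlea, and replicates 5 and 6 lay inside the control range. The difference was -0.79 (SE 0.46) for M+V minus control, or -0.25 without M+V replicate 1. Against 4 weeks it was -0.93 (SE 0.46), or -0.39 without that array, with 5 of 6 M+V cochleae below every 4-week cochlea. Control minus 4 weeks was -0.14 (SE 0.48), less than its standard error.

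Igll1 was 6.69, 9.32, 8.40, 9.75, 9.73 and 9.68 in M+V replicates 1 to 6, 9.45, 8.91, 8.79, 9.41 and 9.50 in the control cochleae and 9.13, 9.62, 9.94, 9.85 and 9.41 at 4 weeks. M+V replicates 1 and 3 were below every control cochlea, and replicates 4 to 6 were above every one. The difference was -0.29 (SE 0.43) for M+V minus control and 0.16 without M+V replicate 1. M+V minus 4 weeks was -0.66 (SE 0.43), or -0.21 without that array, and control minus 4 weeks -0.38 (SE 0.45). The other Igll1 probe averaged 4.36 over the arrays, under the filter, and is not used.

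**Figure D1:**
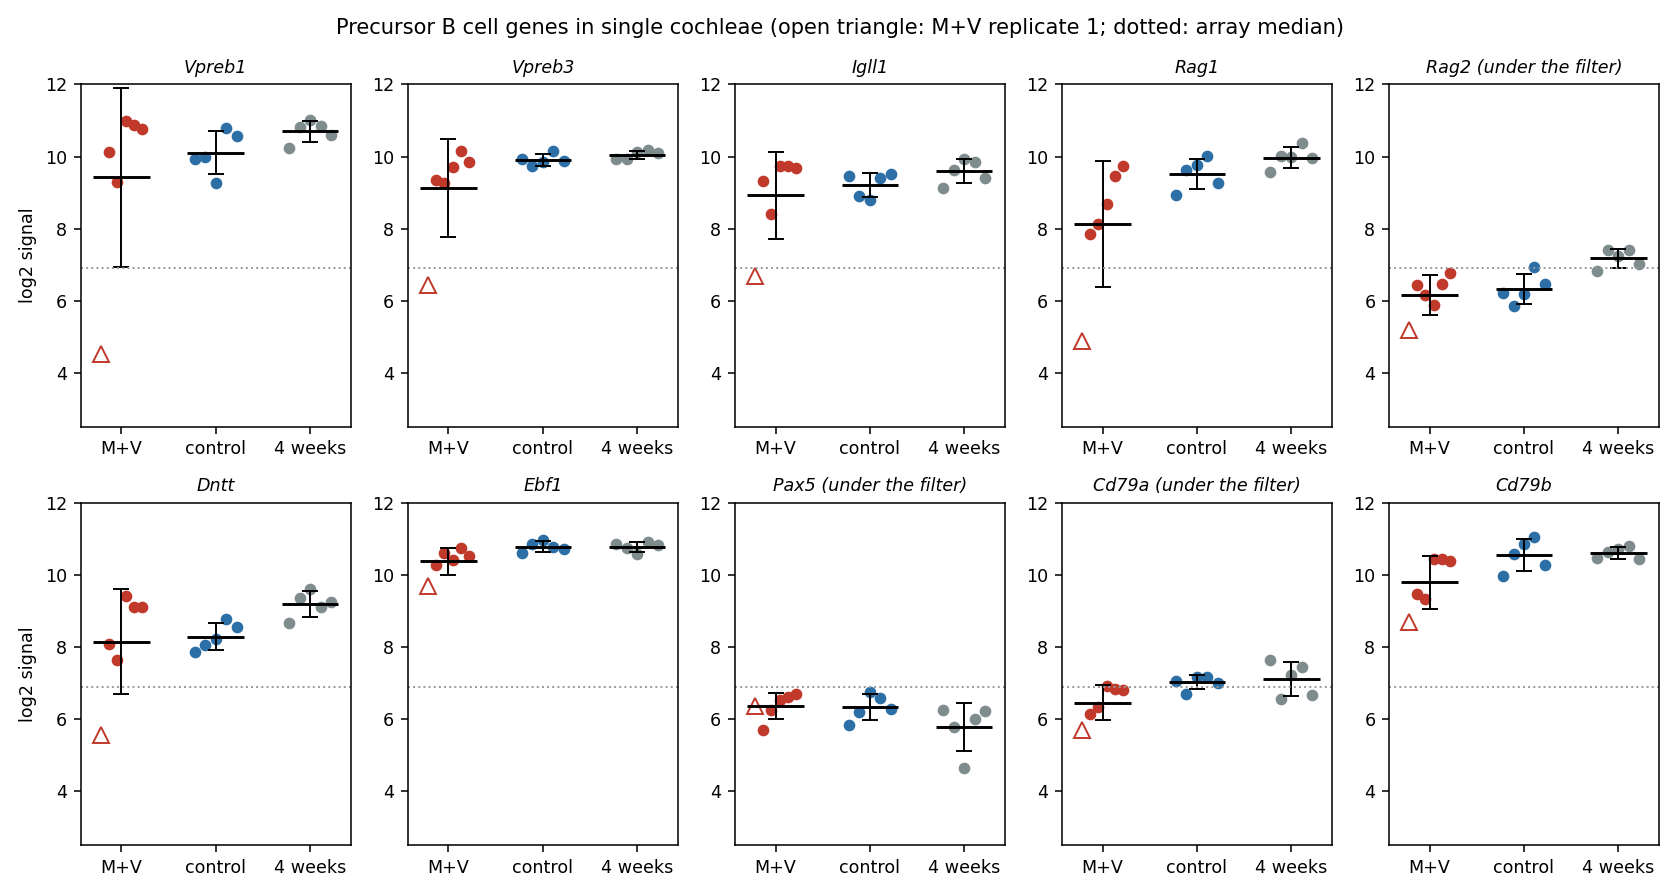
Log2 signal of the brightest probe of the 10 precursor B cell genes in each cochlea, by group on the x axis (points in replicate order, lines for the mean and bars for 1 SD, n = 6, 5 and 5). The open triangle is M+V replicate 1, at 4.52 for Vpreb1 and 4.87 for Rag1, and the dotted line is the array median of 6.90.

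Of the genes of V(D)J recombination, Rag1 had the most negative differences among the 10 genes in both comparisons of M+V. Rag1, the subunit of the recombinase that cuts DNA, was 4.87, 7.84, 8.11, 8.67, 9.46 and 9.75 in M+V replicates 1 to 6, against 8.93, 9.62, 9.76, 10.01 and 9.27 in control cochleae and 9.56, 10.01, 9.98, 10.37 and 9.95 at 4 weeks. M+V replicates 1 to 4 were below every control cochlea, and 5 of the 6 M+V cochleae were below every one at 4 weeks. It averaged 8.12 ± 1.75 in M+V cochleae (SD, n = 6), 9.52 ± 0.42 in control cochleae and 9.97 ± 0.29 at 4 weeks (SD, n = 5 each). The difference was -1.40 (SE 0.61) for M+V minus control and -1.85 (SE 0.61) for M+V minus 4 weeks. Without M+V replicate 1 these were -0.75 and -1.20. The control and 4-week cochleae differed by -0.46 (SE 0.63).

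Rag2, the partner of Rag1 in the recombinase, was dim, with 5.19, 6.43, 6.17, 5.88, 6.47 and 6.76 in M+V replicates 1 to 6. The control cochleae had 6.21, 5.84, 6.18, 6.94 and 6.46, and those at 4 weeks had 6.82, 7.40, 7.23, 7.40 and 7.02. All 6 M+V cochleae and 4 of 5 control cochleae were below every 4-week cochlea, while M+V and control overlapped. The difference was -1.03 (SE 0.26) for M+V minus 4 weeks, -0.85 (SE 0.27) for control minus 4 weeks and -0.18 (SE 0.26) for M+V minus control. M+V minus 4 weeks was -0.83 without M+V replicate 1. Of all tested probes, 2.76% had every M+V array below every 4-week array, but Rag2 itself was not among the tested.

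Dntt, the polymerase that adds bases at the joints without a template, was 5.55, 8.07, 7.64, 9.43, 9.12 and 9.12 in M+V replicates 1 to 6, 7.86, 8.05, 8.22, 8.77 and 8.56 in control cochleae and 8.67, 9.36, 9.63, 9.10 and 9.26 at 4 weeks. M+V replicates 4 to 6 were above every control cochlea and replicates 1 and 3 below every one. At the brightest probe the difference was -0.14 (SE 0.51) for M+V minus control, or 0.38 without M+V replicate 1. M+V minus 4 weeks was -1.05 (SE 0.51), or -0.53 without that array. For control minus 4 weeks it was -0.91 (SE 0.53), with 4 of 5 control cochleae below every 4-week cochlea. The other tested Dntt probe gave 0.00 (SE 0.45) for that comparison, and a dim probe under the filter gave -0.90 (SE 0.57). For M+V minus control, with all arrays, these probes gave -0.60 (SE 0.43) and -0.47 (SE 0.55). For M+V minus 4 weeks they gave -0.60 (SE 0.43) and -1.37 (SE 0.55). At the dim probe every control cochlea was below every 4-week cochlea, so the probes of Dntt disagree.

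Ebf1 and Pax5 are the transcription factors among the genes. Ebf1, which opens the B cell programme and is also made by other cells such as osteoblast and fat cell precursors, was 9.69 to 10.76 in M+V cochleae, with a median of 10.48. It was 10.60, 10.88, 10.99, 10.77 and 10.73 in control cochleae and 10.85, 10.76, 10.57, 10.93 and 10.82 at 4 weeks. M+V replicates 1, 2, 4 and 6 were below every control and every 4-week cochlea, and the other M+V cochleae lay inside those ranges. The difference was -0.41 (SE 0.15) for M+V minus control and -0.40 (SE 0.15) for M+V minus 4 weeks, or -0.27 and -0.26 without M+V replicate 1. Control minus 4 weeks was 0.01 (SE 0.16). For M+V minus control the other tested Ebf1 probes gave -0.075 (SE 0.177) and -0.056 (SE 0.119), less than their standard errors, and -0.270 (SE 0.099). A dim probe under the filter went the other way, at 0.77 (SE 0.35), so the probes of Ebf1 disagree. The mean of all Ebf1 probes gave -0.008 for M+V minus control and -0.131 for M+V minus 4 weeks. Of the 4 tested Ebf1 probes, 1 gave 0.04 (SE 0.18) for M+V minus 4 weeks, and 1 gave -0.37 (SE 0.10). The last was the single probe of all 11 tested member probes that limma called, where 3.2% of all tested probes were called lower.

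Pax5, which commits the cell to the B lineage, was under the filter. It was 5.71 to 6.71 in M+V cochleae, with a median of 6.46, 5.85 to 6.75 in control cochleae and 4.64 to 6.26 at 4 weeks. The M+V and control ranges nearly coincided, and the 4-week cochleae reached lower. Pax5 was the 1 gene above 0 in both comparisons of M+V, with 0.03 (SE 0.28) for M+V minus control and 0.59 (SE 0.28) for M+V minus 4 weeks. Control minus 4 weeks was 0.56 (SE 0.29). The second Pax5 probe, dimmer still, gave -0.66 (SE 0.54) for M+V minus 4 weeks, so no direction is given for Pax5.

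Cd79a and Cd79b, the signalling chains that carry the pre-B cell receptor and stay on mature B cells, were lower on average in the M+V cochleae than in either other group. Cd79b was 8.70, 9.47, 9.33, 10.45, 10.44 and 10.39 in M+V replicates 1 to 6, 9.96, 10.59, 10.87, 11.06 and 10.29 in control cochleae and 10.48, 10.65, 10.72, 10.82 and 10.43 at 4 weeks. M+V replicates 1 to 3 were below every control cochlea, and replicates 4 to 6 lay inside the control range. The difference was -0.76 (SE 0.29) for M+V minus control, or -0.54 without M+V replicate 1. It was -0.82 (SE 0.29) for M+V minus 4 weeks, or -0.60 without that array, and -0.07 (SE 0.30) for control minus 4 weeks.

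Cd79a, under the filter, was 5.71, 6.15, 6.35, 6.93, 6.83 and 6.80 in M+V replicates 1 to 6, 6.71 to 7.18 in control cochleae with a median of 7.07, and 7.64, 6.57, 7.23, 7.45 and 6.67 at 4 weeks. As for Cd79b, M+V replicates 1 to 3 were below every control cochlea. The difference was -0.56 (SE 0.24) for M+V minus control, or -0.41 without M+V replicate 1, and -0.65 (SE 0.24) for M+V minus 4 weeks, or -0.50 without it. Between control and 4-week cochleae it was -0.08 (SE 0.25).

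Over the 10 genes, 9 were below 0 for M+V minus control, with a median of -0.48, where 47.7% of all tested probes were below 0 and their median was 0.01. Of these 9, Vpreb1, Igll1, Rag2 and Dntt were above 0 without M+V replicate 1, and the median over the 10 was then -0.12. Likewise 9 were below 0 for M+V minus 4 weeks, with a median of -0.88, against 49.2% and a median of 0.00. In control minus 4 weeks 8 were below 0, with a median of -0.26, against 50.2% and a median of 0.00. At an adjusted p under 0.05 limma called 0 of the 7 tested genes in each comparison. Of all tested probes it called 0% for M+V minus control (9.8% at an unadjusted p under 0.05), 5.28% for M+V minus 4 weeks and 1.38% for control minus 4 weeks. At an unadjusted p under 0.05, 3 of the 7 genes were lower in M+V than in control cochleae, 3 lower in M+V than in 4-week cochleae (22.2% of all tested probes in either direction), and 0 lower in control than in 4-week cochleae (13.8%). At the study's cutoffs, an unadjusted p under 0.05 in the methods' t-test and a fold over 1.5, 0 of the 7 were lower in M+V than in control cochleae (0.781% of all tested probes), 2 in M+V than in 4-week cochleae (Rag1 and Cd79b, 2.43%) and 1 in control than in 4-week cochleae (Dntt, 1.35%). With the p of limma at the same cutoffs these were Rag1 and Cd79b in both comparisons of M+V (1.34% and 2.77%) and 0 for control minus 4 weeks (1.4%). The comparisons share arrays, and nothing is read from these counts, because the genes were chosen with the values known.

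**Figure D2:**
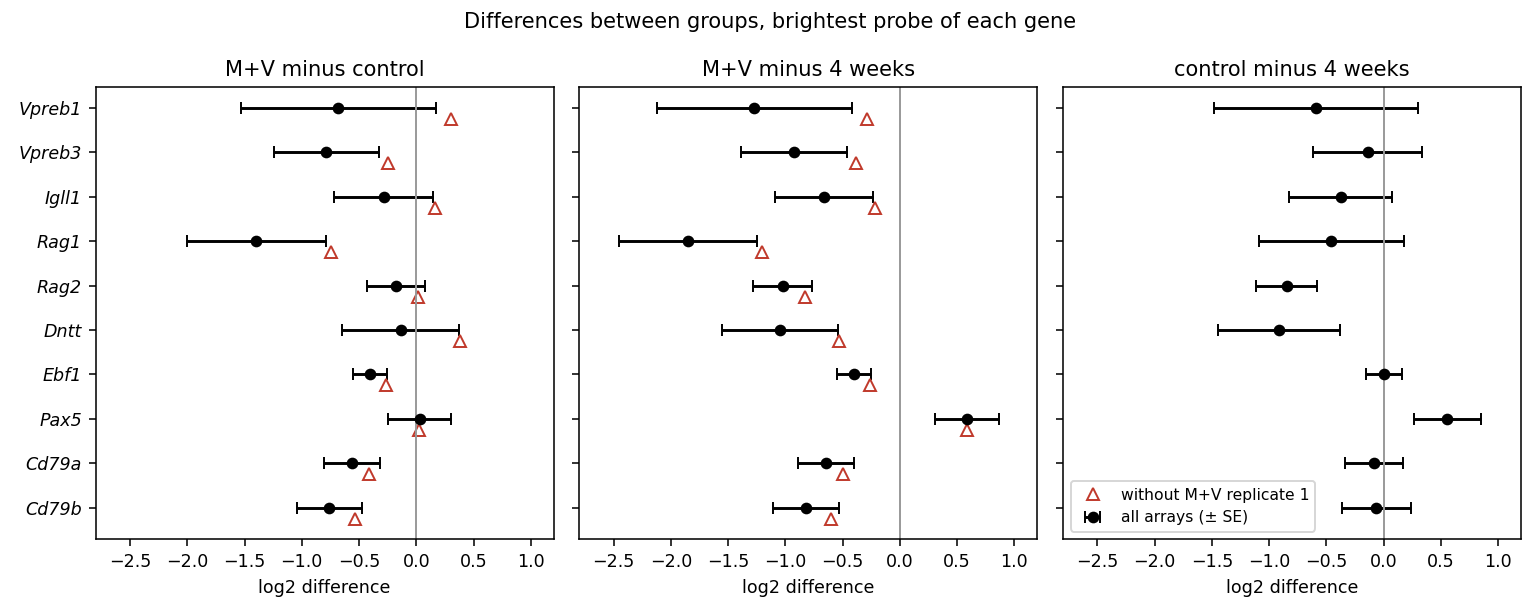
Log2 differences between groups for the 10 genes, in rows, with 1 SE, from all arrays (filled circles) and, for the comparisons of M+V, without M+V replicate 1 (open triangles). For M+V minus control, Vpreb1 is at -0.68 with all arrays and 0.30 without that one, and Rag1 at -1.40 and -0.75.

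The differences were also taken within each bioB level. Among the arrays with a low level, 4 M+V and 4 control, the median over the 10 genes was -0.10 for M+V minus control, with Rag1 at -0.67, Cd79b at -0.55, Cd79a at -0.29, Ebf1 at -0.25 and Dntt at 0.43. These arrays leave out M+V replicate 1, and without that array alone the median was -0.12, so the part of the bioB level in this value cannot be told apart from that of the array. Among those with a high level, M+V replicates 1 and 2 and the single control array, it was -1.09. In the high arrays M+V minus 4 weeks was -1.56, and with the bioB level as a block -1.36. For control minus 4 weeks the block gave -1.02 in place of -0.26, or -0.47 when M+V replicate 1 was left out as well. With the block the effect of the level comes from the high and low arrays of both groups at 12 weeks. M+V arrays therefore enter this comparison, and only 3 arrays at 12 weeks are high.

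M+V replicate 1 held the lowest of the 16 values for 9 of the 10 genes, all but Pax5. Vpreb1, Vpreb3, Igll1, Rag1 and Dntt were at least 1 log2 unit under every other array there, which held for 0.991% of all tested probes (212 of 21391). On the log2 scale Vpreb1 differed by -5.89 in this cochlea from the mean of the other 5 M+V cochleae, Rag1 by -3.90, Vpreb3 by -3.23, Dntt by -3.12 and Igll1 by -2.68. All 5 were under the array median there, where no level of background is known, so that no fold is given. The differences were -1.32 for Cd79b, -1.15 for Rag2, -0.91 for Cd79a and -0.83 for Ebf1. Against the control cochleae, 9 of the 10 genes were below every one in M+V replicate 1 (29.8% of all tested probes), 6 in replicate 2 (24.9%), 6 in replicate 3 (23.3%), 3 in replicate 4 (17.1%), 0 in replicate 5 (11.9%) and 1 in replicate 6 (15.4%).

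Genes of red cell precursors, which share the marrow, were low in the same array. Klf1, the erythroid transcription factor, was 2.88 in M+V replicate 1 and 11.20 or more in each of the other 15 arrays, and Alas2, the first enzyme of heme synthesis in red cells, was 4.02 there and 11.22 or more elsewhere. As a log2 deviation from its mean over the 16 arrays, the mean of the 8 erythroid genes with a probe of their own was at -5.80 in M+V replicate 1, where that of the 10 precursor B cell genes was at -2.33. Their summed signal was 527 in that array and up to 34180 in M+V cochleae, 24550 to 40980 in control cochleae and 24190 to 40700 at 4 weeks. M+V replicates 2 and 3, which followed for the precursor B cell genes at -0.43 and -0.56, were at 0.33 and -0.26 for the erythroid genes.

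Other lists stood on either side of their mean in M+V replicate 1. On the same scale the 12 neutrophil genes were at 0.49 there, the 10 macrophage genes at 0.51, the 11 T cell genes at 0.48, the 8 plasma cell genes at 1.03 and the 7 marrow niche factors at 0.57. The 11 mature B cell genes were at -0.81, the 25 other genes of the early B lineage at -0.45, the 7 bone genes at -0.61, the 12 cochlear genes at -0.52 and the 7 genes of brain tissue at -1.05. Not all of these were particular to that array. The other early B lineage genes were at -0.62 in M+V replicate 3, the bone genes at -0.64 in replicate 2 and the brain tissue genes at -1.01 in replicate 5. The mature B cell and cochlear genes were lowest in replicate 1. The neutrophil genes had summed signals of 174400 to 233000 in M+V cochleae, 192600 to 212100 in control cochleae and 155700 to 192100 at 4 weeks. The part of each of these in the values of the precursor B cell genes was not tested. The difference between 3′ and 5′ probes of Gapdh, a sign of RNA quality, was 0.19 in M+V replicate 1, the top of the M+V range from -0.13, with -0.17 to 0.19 in control cochleae and 0.00 to 0.07 at 4 weeks.

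**Figure D3:**
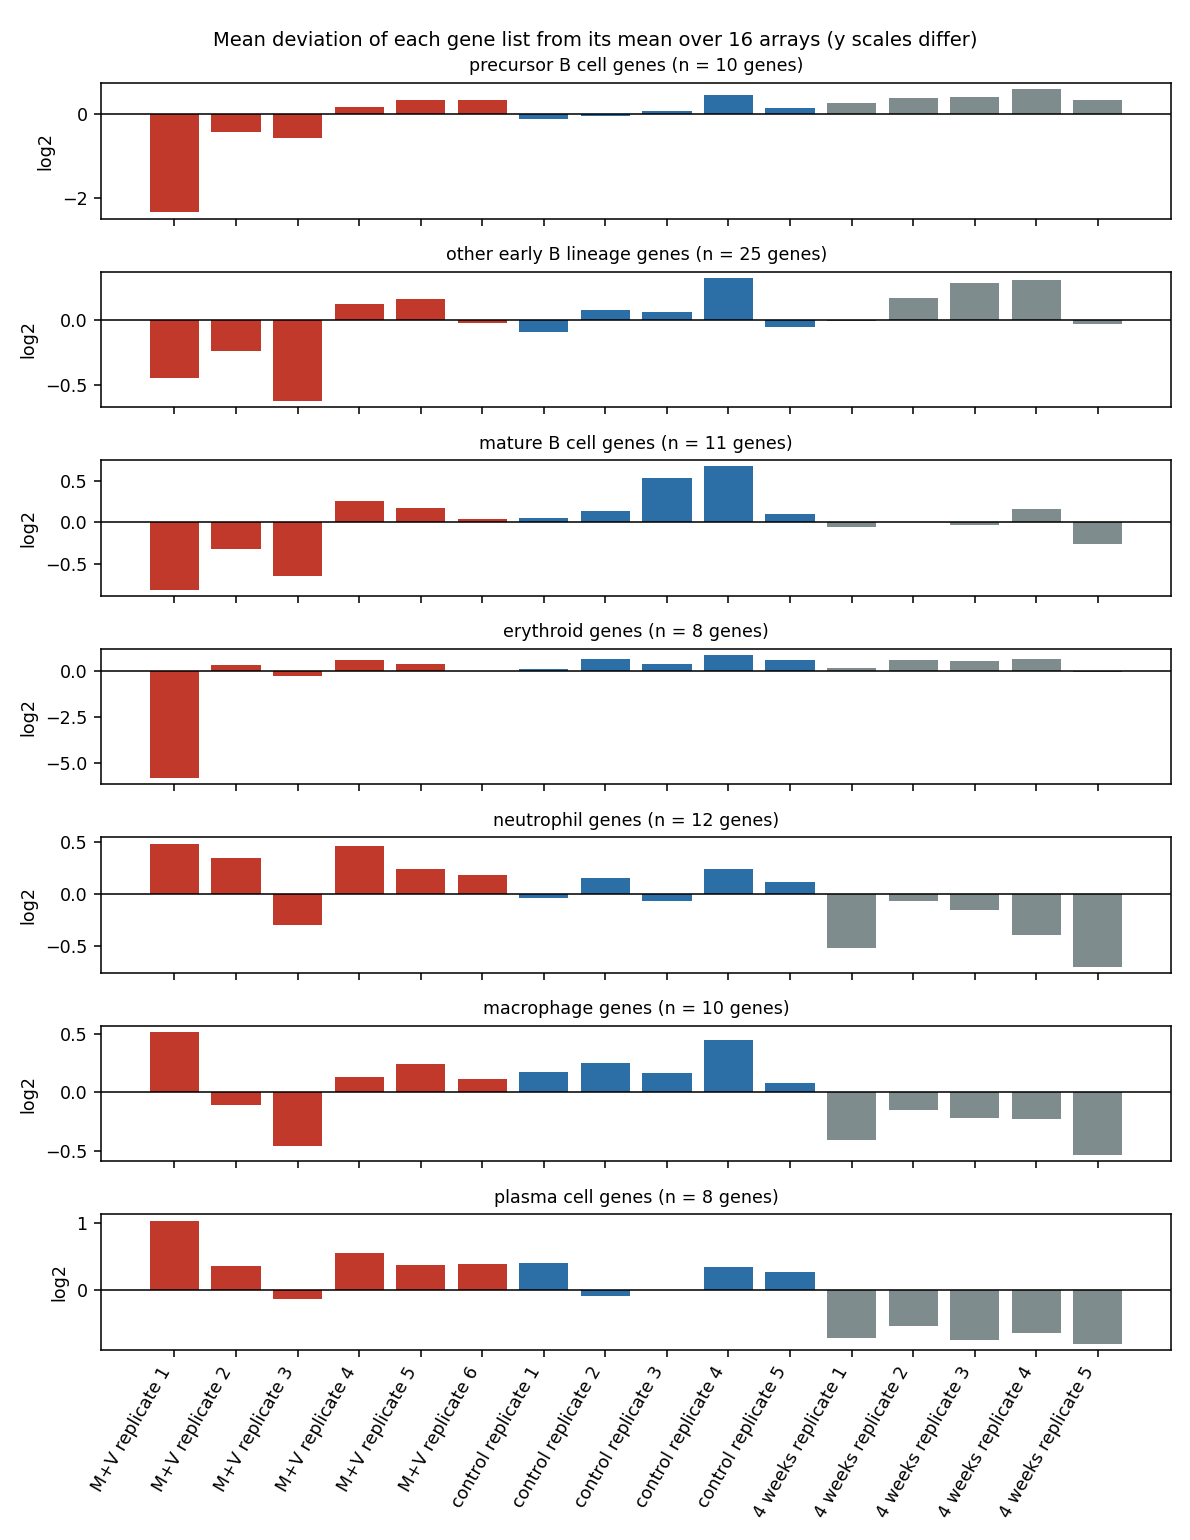
Mean log2 deviation of 7 gene lists from their own mean over the 16 arrays, with 1 bar per cochlea ordered M+V, control and 4 weeks, and a y scale of its own in each panel. M+V replicate 1 is at -2.33 for the precursor B cell genes and -5.80 for the erythroid genes, and at 0.49 for the neutrophil genes.

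The precursor B cell genes were alike in their profile over the cochleae in a set of pairs. Vpreb1 and Igll1, the neighbours on chromosome 16, had a Pearson r of 0.97 over the 16 arrays and 0.92 without M+V replicate 1. Vpreb1 and Dntt had 0.93 and 0.88, Rag1 and Cd79b 0.92 and 0.89, and Vpreb3 and Rag1 0.95 and 0.86. Other pairs rested on the single array: Vpreb1 and Ebf1 had 0.72 with it and -0.17 without it, and Vpreb1 and Rag1 0.88 and 0.45. Rag1 and Rag2, whose start sites are also close, had 0.77 and 0.64. Pax5 had no r over 0.09 with any of the others over the 16 arrays. These are descriptions over arrays that share the quantile normalization and, within a group, the treatment.

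Among 11450 other genes, those most like the mean of the 7 tested precursor B cell genes over the 16 arrays were Myl4 (r 0.97), Slc16a1 (0.97), Niban3 (0.96), Blvrb (0.95), Btnl10 (0.95), Car2 (0.95), Ermap (0.95), Hemgn (0.95), Cldn13 (0.95) and Fcrla (0.95). Ermap and Hemgn are in the list of erythroid genes and Fcrla in that of mature B cell genes, and the others are in no list used here. Each was lower in M+V replicate 1 than its mean over the other arrays, from Btnl10 (1.85 against 8.30) to Car2 (13.40 against 14.59). Without M+V replicates 1 and 3, the arrays farthest from the median, r was 0.91 for Car2, 0.78 for Niban3, 0.77 for Myl4, 0.73 for Fcrla and Slc16a1, and between 0.51 and 0.61 for the rest. Of the listed early B genes outside the 10, Spib was the most alike, with 0.95 over the 16 arrays, but without those 2 it had 0.85 and Pou2af1 0.88 (0.80 over the 16).

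Other genes of the early B lineage were tested on the same cochleae. Their list too was chosen with earlier results of these arrays known, so their calls are no separate support for the 10 genes. Of 28 listed genes 25 had a probe of their own, and all 25 passed the filter, while the others are not analysed here. For M+V minus control limma called 0 of the 25 (8 lower and 0 higher at an unadjusted p under 0.05), with 18 below 0 and a median of -0.18. Against 4 weeks it called 6 lower and 0 higher in M+V, 20 were below 0 and the median was -0.18. For control minus 4 weeks it called 1 lower and 0 higher, with a median of -0.02. Of all tested probes 0% were called lower for M+V minus control, 3.2% for M+V minus 4 weeks and 1.01% for control minus 4 weeks.

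Il7r, the receptor for the growth factor of pro-B cells, was 8.30 to 9.31 in M+V cochleae, with a median of 8.84, against 10.01, 9.68, 10.27, 10.09 and 9.60 at 4 weeks. The groups did not overlap, and Il7r was lower by 1.10 on the log2 scale in M+V than at 4 weeks (SE 0.19, limma adjusted p = 0.00435). Control cochleae had 9.14, 9.24, 9.43, 9.63 and 9.14, with a difference of -0.61 from 4 weeks (limma adjusted p = 0.168). Sox4, a transcription factor of lymphoid precursors and of many developing tissues, was 11.96 to 12.53 in M+V cochleae (median 12.24), 12.34 to 12.54 in control cochleae and 12.78 to 12.91 at 4 weeks. Neither group at 12 weeks overlapped with 4 weeks. Sox4 was lower than at 4 weeks by 0.56 in M+V (SE 0.09, limma adjusted p = 0.00303) and by 0.41 in control cochleae (SE 0.10, limma adjusted p = 0.0468). Lig4, the ligase that closes the joints cut by the recombinase and that all cells use to repair breaks, was 8.14 to 8.48 in M+V cochleae (median 8.34), 8.35 to 8.59 in control cochleae and 8.61 to 8.88 at 4 weeks. It was lower by 0.41 in M+V than at 4 weeks (SE 0.08, limma adjusted p = 0.00874), and control minus 4 weeks was -0.23 (limma adjusted p = 0.219).

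The other genes called for M+V minus 4 weeks act later in B cells as well. Bach2, a repressor that guides the pre-B cell past its checkpoint, was 8.93 to 10.42 in M+V cochleae, 9.99 to 10.86 in control cochleae and 10.41 to 11.07 at 4 weeks. It was lower by 1.03 in M+V than at 4 weeks (SE 0.25, limma adjusted p = 0.0270). Pou2af1, a coactivator of octamer factors, was lower by 0.97 in the same comparison (SE 0.27, limma adjusted p = 0.0474). Irf4, a factor that ends pre-B cell growth, was lower by 1.27 there (SE 0.36, limma adjusted p = 0.0496). M+V and 4-week cochleae did not overlap for Irf4 and did for Bach2 and Pou2af1. Spib, an Ets factor of B cells, had a difference of -1.34 (SE 0.40, limma adjusted p = 0.0582) and did not pass. Il7r, Sox4 and Lig4 passed with each of the 16 arrays left out in turn. Bach2 did not without 4-week replicate 3, 4-week replicate 4 or M+V replicate 2, and Pou2af1 and Irf4 were lost in most of these. Sox4 for control minus 4 weeks was lost in 12 of the 16 and with the bioB level as a block.

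**Figure D4:**
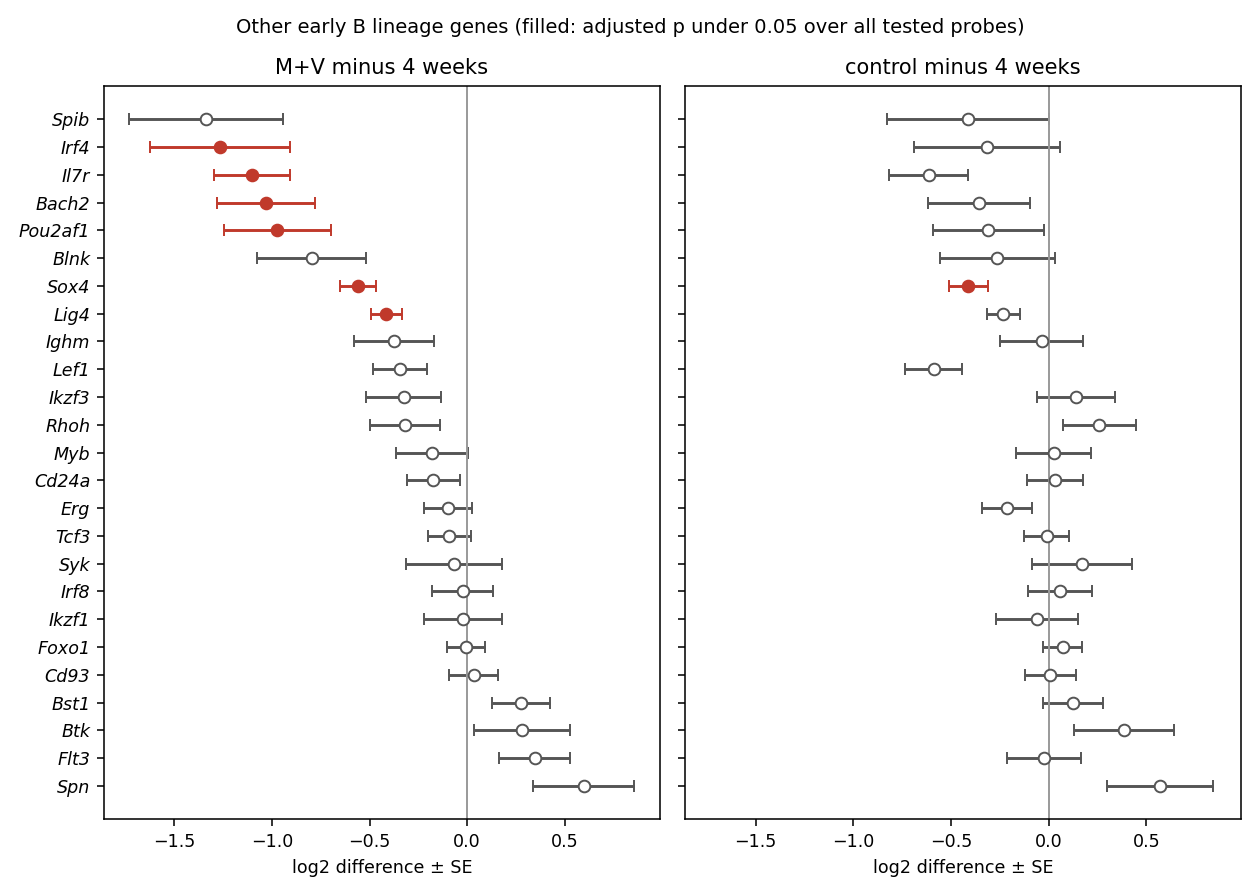
Log2 differences with 1 SE for the 25 other early B lineage genes, in rows ordered by M+V minus 4 weeks, with genes past the limma threshold filled. The 6 filled genes for M+V minus 4 weeks run from -1.27 (Irf4) to -0.41 (Lig4), and Sox4 is the 1 filled gene for control minus 4 weeks.

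Genes of bone, in which the marrow lies, were lower at 12 weeks as well, with 5 of 7 called lower for M+V minus 4 weeks and 4 of 7 for control minus 4 weeks. Their summed signals were 31410 to 44360 in M+V cochleae, 35010 to 49060 in control cochleae and 66290 to 75530 at 4 weeks, with no overlap between either group at 12 weeks and 4 weeks. Gene by gene, which is another measure than the sum, the bone genes Sp7 and Sost overlapped between control and 4 weeks, and the others did not. The precursor B cell genes, at their brightest probes, overlapped there for 10 of 10 genes, as did 94.4% of all tested probes. Of the 9 tested genes of mature B cells, limma called 0 lower in M+V than at 4 weeks (3 at an unadjusted p under 0.05). It called 1 higher, Ltb, by 0.70 (SE 0.19, limma adjusted p = 0.0406). Bank1 was higher in control cochleae than at 4 weeks by 0.52 (limma adjusted p = 0.0471). Between M+V and control limma called 0 of these 9 (6 lower and 0 higher at an unadjusted p under 0.05). There 10 of all 11 mature B cell genes were below 0, with a median of -0.43, so lower values in M+V were not particular to the precursor B cell genes. Of the 6 tested marrow niche factors limma called 0 in any comparison (0 for M+V minus control, 3 for M+V minus 4 weeks and 2 for control minus 4 weeks at an unadjusted p under 0.05), and Il7, the ligand of Il7r, was under the filter. The part of bone in the values of the early B lineage genes was not tested.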

How the data were processed

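RNA of whole left cochleae from 16 mice was hybridised to 1 array each. The authors made the signals with GCOS and the MAS5 algorithm (versions not stated) and quantile-normalized them over all arrays, and the deposited values are on the log2 scale. They ran from -3.31 to 15.4, and signals under 1 (0.869% of values) were set to 1. The array annotation names 1 gene for 34958 probes, several for 932 and none for 9211. The methods' present calls were not used here, and a probe was tested in their place if 1 or more groups had it at or over the 50th percentile in all of their arrays, with 64 control probes left out.

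A linear model with a mean for each of the 3 groups was fitted to the 21391 tested probes with limma 3.58.1 in R 4.3.3 (lmFit, contrasts.fit, eBayes), two-sided, with Benjamini-Hochberg adjustment over all of them and a threshold of 0.05. The script was tested on simulated data. The number of arrays limits the precision. A gene stands for its brightest tested probe, or its brightest probe where none passed. The 10 genes and the other gene lists were chosen with earlier results of these data known. Named are all 10 genes, genes of other lists past the adjusted p or otherwise those with the largest moderated t, and the 10 genes most like the members by Pearson r. Alternatives were cyclic loess, median centring, log2(signal + 32), other filters, the methods' t-test, only the compared groups, array weights, the replicate number or bioB level as a block, each bioB level alone, other probes, and each array left out. A fit with the bioB block and without M+V replicate 1 was added after the data were seen. Residuals of same-numbered arrays correlated over 0.1 in 6 of 15 pairs, so the numbers were not taken as pairs.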

Additional observations from a re-analysis of the deposited data

Results flagged for a closer look

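In 3 of 57 sets of 5 or 6 values 1 array lay far from the others by Dixon's ratio of the gap to the range. Chance alone does so in about 1 of 20, and the sets share arrays. All 3 are of M+V replicate 1. Vpreb1 was 4.52 there, with the nearest M+V value at 9.28 and a gap of 0.736 of the range. Vpreb3 was 6.43, with the nearest at 9.28 and a gap of 0.762. The mean deviation over the 7 tested precursor B cell genes, which include Vpreb1 and Vpreb3, was -3.01. The nearest M+V array was at -0.69, with a gap of 0.673.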

How the results depend on the processing

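As 0 of the 7 tested precursor B cell genes were called with all arrays, no call of theirs could turn to the opposite direction under an alternative. For M+V minus 4 weeks, 1129 probes passed. There were 317 with no filter, 719 with a filter at the 25th percentile, 257 with the methods' t-test, 581 with only the 2 groups compared, 2485 with array weights, 710 with the replicate block, and 552 with the bioB block when M+V replicate 1 was left out. Leaving out 1 array gave 586 (without 4-week replicate 4) to 1798 (without M+V replicate 3). For control minus 4 weeks, 295 probes passed. There were 95 with no filter, 183 with the 25th percentile, 189 with the methods' t-test, 651 with only the 2 groups, 1012 with array weights, 166 with the replicate block, 170 with the bioB block, 190 with that block without M+V replicate 1, and 22 in the arrays with a high bioB level. Leaving out 1 array gave 139 (without control replicate 5) to 548 (without M+V replicate 1). For M+V minus control 0 passed in limma and in the methods' t-test (2096 and 1565 at an unadjusted p under 0.05), 0 with each array left out and 14 in the high bioB arrays. The causes were not tested.

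The median over the 10 genes, with each array left out, was -0.56 to -0.12 for M+V minus control, -1.02 to -0.44 for M+V minus 4 weeks and -0.33 to -0.20 for control minus 4 weeks, the highest of the first 2 without M+V replicate 1. For control minus 4 weeks it was -1.02 with the bioB block, and for M+V minus 4 weeks -1.56 in the high bioB arrays. With the replicate block it was -0.53 for M+V minus control. For M+V minus 4 weeks 4 member genes (Rag1, Dntt, Ebf1 and Cd79b) were among the 1427 probes called with the bioB block. There were 3 in the high bioB arrays (1039 probes called) and 2, Rag1 and Cd79b, with the block without M+V replicate 1 (552 called). Rag1 alone was called with the replicate block (710 called) and without M+V replicate 1 (1548 called). Rag2 alone, not among the 7 tested genes, was called with the 25th percentile (719 called) and without 4-week replicate 1 (623 called). Dntt was called for control minus 4 weeks with only those 2 groups (651 probes called). These calls test nothing, since the genes were chosen on the same values. The Ebf1 probe called for M+V minus 4 weeks was lost in several of these. Without M+V replicate 1, Vpreb1, Igll1, Rag2 and Dntt turned above 0 for M+V minus control at their brightest probes (0.30, 0.16, 0.01 and 0.38). Pax5 stayed above 0, with a mean of 6.360 in the other M+V cochleae against 6.334 in control cochleae. Dim probes limit Rag2, Pax5 and Cd79a.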

Other observations

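Of the genes of plasma cells, the last stage of the B lineage, Igha and Jchain were higher at 12 weeks. Igha, the heavy chain of immunoglobulin A, was 12.17 to 14.09 in M+V cochleae, 11.77 to 13.53 in control cochleae and 7.36 to 9.44 at 4 weeks, with no overlap between either group at 12 weeks and 4 weeks. Of the 6 tested plasma cell genes, limma called 2 higher and 0 lower for both comparisons with 4 weeks, Igha and Jchain, and 0 for M+V minus control. Of the 12 neutrophil genes limma called 5 higher and 0 lower for M+V minus 4 weeks (Elane, Mpo, Prtn3, Ctsg and Lcn2) and 2 higher for control minus 4 weeks (Prtn3 and Ctsg). The other plasma cell genes lay on both sides of 0, with 5 of all 8 above 0 for control minus 4 weeks and a median of 0.12.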
